A study of Mus musculus with 4 samples.

Results

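The interleukin-6 family and its receptors were followed as 5 genes (Il6, Osm, Lif, Il6ra and Il6st) of the 23462 genes that the arrays could name. A probe belonged to the set when the RefSeq transcript printed for it in the array files mapped to 1 of these symbols, which gave 9 of 33767 named probes: 1 for Lif and 2 for each of the other genes. The cells were GM-CSF bone marrow cultures of male C57BL/6J mice, collected on day 6 and described in the labels as dendritic cells, and all 4 groups were wild type. One culture was kept without stimulation (medium), 1 received LPS at 100 ng/ml, 1 received L-(+)-LA at 20 mM (lactate in the series title, no pH stated), and 1 received LPS and LA together, each treatment for 4 h. Every group was 1 culture on 1 single-colour array, and the labels do not say how many mice were used or how long the unstimulated cells were held. No test is therefore possible: the values below compare 1 array with another, without a p-value, and precision is limited by there being 1 array a group.

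Cytokines of this family share the signalling chain gp130, encoded by Il6st, which activates JAK kinases and the transcription factor STAT3. IL-6 first binds its own receptor chain, encoded by Il6ra, on the cell surface or in a shed, soluble form, and the pair then engages gp130. Oncostatin M (Osm) and leukemia inhibitory factor (Lif) use gp130 together with the receptors encoded by Osmr and Lifr. SOCS3, itself induced by STAT3, shuts the signal off. In dendritic cells and macrophages, IL-6 is known as an early cytokine of the response to LPS, the bacterial product sensed by TLR4.

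The data showed opposite patterns for the ligand IL-6 and its receptor chain. With LPS alone, Il6 was 79.3-fold higher than in medium and Il6ra was 11.1-fold lower, while Il6st was 3.05-fold lower. With LPS and LA together neither Il6 nor the brighter probe of Il6ra was as much as 2-fold from medium (the second Il6ra probe was 2.28-fold above it), whereas Osm, 3.45-fold higher, and Il6st, 2.43-fold lower, kept a distance from medium that LA alone also gave. Between LPS with LA and LA alone, 0 of the 5 genes differed by 2-fold, but few genes of the array did (1.71% higher and 2.71% lower of 16414).

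Levels are given as log2 of the processed spot intensity over the 75th percentile of the same array, so that 0 marks that percentile, and a difference of 1 is 2-fold. Levels of different probes are not comparable and only differences between arrays are set side by side. All 4 arrays were on 1 slide and in 1 scan. Between 56.5% and 64.1% of 59305 spots were well above background, the lowest share being that of the LPS array. Probes printed 10 times had a median SD of 0.051 to 0.054 log2 units between spots of an array, and 0.38 to 0.49 where they were not above background. This error covers spots only and leaves out labelling, culture and animal. All 11 dendritic cell markers examined were above background on every array, among them Cd74, H2-Ab1, Itgax and Zbtb46. So were all 9 markers of neutrophils and their precursors. The dendritic cell markers summed to 283 in medium, 325 after LPS, 219 after LA and 209 after both (intensity over the 75th percentile). Singly, 8 were higher and 3 lower with LPS than in medium, 3 and 8 with LA, and 5 and 6 with both. In bulk RNA of such a culture, fewer cells of a type and less RNA per cell cannot be told apart.

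Il6, the pyrogenic and B cell-stimulating cytokine, was read by 2 probes. The intensity of the brighter one was 57.9 in medium, 4467 after LPS, 24.6 after LA and 34.0 after LPS with LA, with spot errors reported by the scanner software of 6.36, 447, 3.22 and 3.90. As levels these were -1.63 without stimulation, 4.68 after LPS, -2.68 after LA alone and -2.10 after both agents. The LPS array was the only high one, and the array with both agents lay close to the unstimulated one. Against medium, LPS gave a log2 difference of 6.31, the 7th highest of 15642 genes. LPS with LA was 110-fold below LPS (log2 difference -6.78), the 12th lowest of 16015 genes. The second probe rose above background with LPS alone (level 1.95), which bounds its LPS difference at 58.0-fold or more and the difference between LPS with LA and LPS at 64.2-fold or more. With normexp background correction the 2 differences of the brighter probe were 5.31 and -5.42. Without LPS the differences were small: LA alone was 2.08-fold below medium (-1.06), a value that missed the 2-fold mark under 3 of 7 other processings (-0.90 to -0.32). The 7 include leaving out the filter on dim probes, which cannot change this value. LPS with LA was above LA by 0.58 log2 units.

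**Figure D1:**
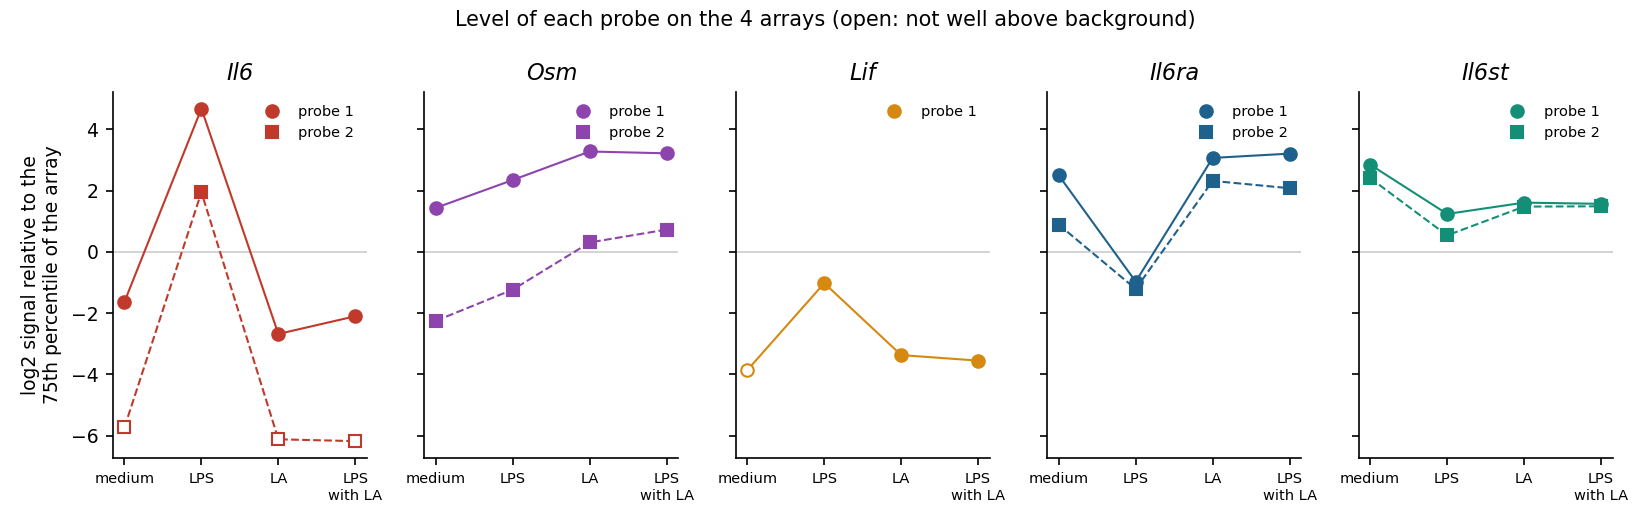
Level of each probe of the 5 genes on the 4 arrays, as log2 intensity over the 75th percentile of that array; 1 point is 1 array, lines join the arrays of a probe, and open points were not well above background. Il6 and Lif peak with LPS alone, both Il6ra probes are lowest there (-0.97 and -1.21), Osm is highest on the LA arrays, and Il6st is highest in medium.

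The 250 bases before the annotated start of Il6, Lif and Il6ra are shown because these genes had the largest differences between LPS with and without LA. The RefSeq table held windows for 4 of the 5 genes, read on the strand of the gene from 5′ to 3′ (build GRCm38.p6). They lie at chr5:30012864-30013113 (plus strand) for Il6, chr11:4257318-4257567 (plus) for Lif and chr3:89913197-89913446 (minus) for Il6ra. Capitals mark every match, on either strand, to the motifs searched.
Il6: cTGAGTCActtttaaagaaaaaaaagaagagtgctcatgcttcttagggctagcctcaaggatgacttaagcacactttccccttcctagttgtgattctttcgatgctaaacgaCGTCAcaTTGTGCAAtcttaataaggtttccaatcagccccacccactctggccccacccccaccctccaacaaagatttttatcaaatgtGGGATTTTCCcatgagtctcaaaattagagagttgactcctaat
Lif: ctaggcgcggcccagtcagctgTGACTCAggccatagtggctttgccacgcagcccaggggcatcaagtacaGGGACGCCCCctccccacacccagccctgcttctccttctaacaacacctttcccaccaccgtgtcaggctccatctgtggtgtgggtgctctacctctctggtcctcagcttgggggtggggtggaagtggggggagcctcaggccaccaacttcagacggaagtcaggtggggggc
Il6ra: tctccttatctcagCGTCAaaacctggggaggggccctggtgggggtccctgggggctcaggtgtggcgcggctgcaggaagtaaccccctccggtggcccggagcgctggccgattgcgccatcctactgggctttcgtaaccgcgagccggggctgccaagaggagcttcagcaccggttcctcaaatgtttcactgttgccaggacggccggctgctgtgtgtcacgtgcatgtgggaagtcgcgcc
The motifs were the NF-kB consensus, AP-1 (TGANTCA), C/EBP (TTGCNNAA), the cAMP response element half-site (TGACG), STAT (TTCNNNGAA) and the GC box (GGGCGG), and none of the matches overlapped another. The Il6 window held an AP-1 match from -249 to -243, a half-site from -135 to -131, a C/EBP match from -128 to -121 and an NF-kB match from -44 to -35. The Lif window held an AP-1 match from -228 to -222 and an NF-kB match from -178 to -169. The Il6ra window held a half-site from -236 to -232, and that of Il6st, on chromosome 13, a GC box from -93 to -88. The STAT letters were in 0 of the 4 windows. Among 32851 promoters of the same length, 7.25% held the NF-kB consensus, 6.75% AP-1, 9.56% C/EBP, 17.8% the half-site, 7.02% the STAT letters and 32.7% the GC box. NF-kB and AP-1 together, a pair picked after the Il6 and Lif matches were seen, were in 0.356% of them. GC content was 42.8% for Il6, 63.6% for Lif, 65.2% for Il6ra and 66.0% for Il6st, against a median of 52.4%. The matches describe the letters of these windows and carry no measurement of binding.

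**Figure D2:**
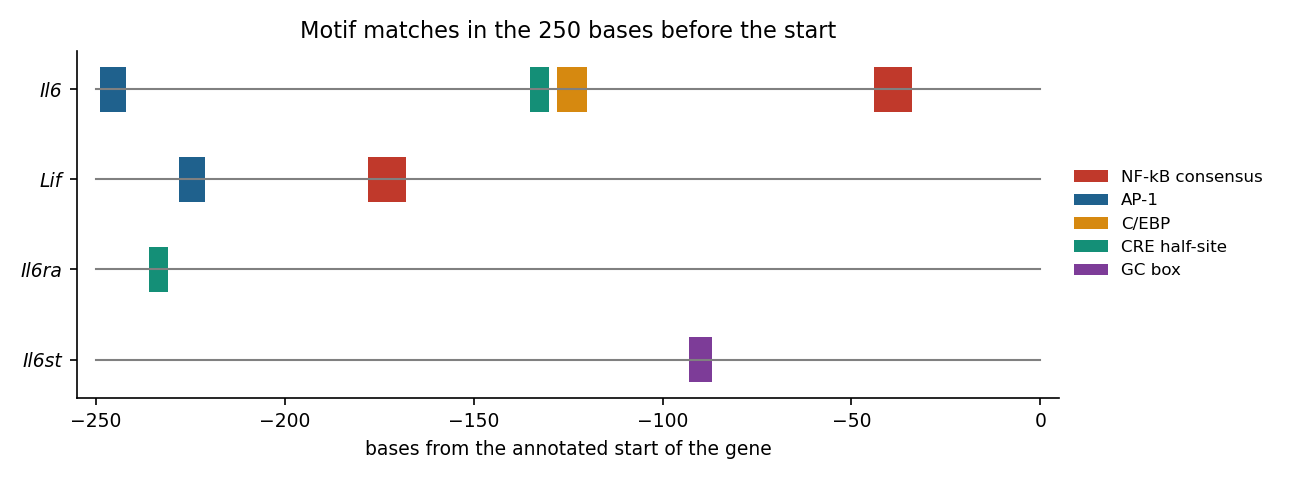
Positions of the motif matches in the 250 bases before the annotated start of 4 genes (x axis, bases from the start; 1 row per gene; colours name the motif). Il6 and Lif each carry an NF-kB and an AP-1 match, Il6ra and Il6st neither.

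Lif, a cytokine best known for keeping mouse embryonic stem cells undifferentiated, is the neighbour of Osm on chromosome 11. Its 1 probe was dim, with intensities of 12.3 (medium), 85.8 (LPS), 15.3 (LA alone) and 12.4 (both agents) and spot errors of 2.80, 9.18, 2.50 and 2.21. The LPS array was again the only high one, and the medium value was not well above background. LPS was 7.16-fold above medium, a value that rests on the dim medium signal as read and is not a minimum. LPS with LA was 5.79-fold below LPS (log2 difference -2.53). With normexp background correction, which adds an offset and compresses dim spots, these log2 differences were 1.1 (2.84 without it) and -0.89. LPS with LA and LA alone were 1.14-fold apart.

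Osm, a gp130 cytokine made by activated myeloid cells, followed another order. Its brighter probe had intensities of 484 in medium, 885 after LPS, 1533 after LA and 1362 after both, or levels of 1.44, 2.35, 3.28 and 3.22. Both LA arrays were the high ones and LPS alone lay between them and medium. LA was 3.58-fold above medium, the 130th highest of 16351 differences, and LPS with LA was 3.45-fold above medium, the 95th highest of 16175. The second probe, at levels of -2.25, -1.23, 0.31 and 0.73, gave 5.90-fold and 7.93-fold. LPS alone stood at 1.88-fold (second probe 2.04-fold), so that it met 2-fold by 1 probe and not by the other. LPS with LA was above LPS by 1.84-fold and 3.90-fold with the 2 probes, and 5 of 8 other processings put it past 2-fold (1.05 to 1.96 log2 units). The 8 include leaving out the filter on dim probes, which cannot change this value. The order medium, LPS, then the LA arrays was also that of the 7 summed markers of mast cells, basophils and eosinophils. Their summed intensity over the 75th percentile was 49.4 in medium, 78.7 after LPS, 95.7 after LA and 101 after both, and 6 of the 7 were above background on all arrays. The 9 neutrophil markers summed to 590, 679, 747 and 765 in the same order, but singly 5 of the 9 were lower with LPS than in medium, whereas 8 were higher with LA and 9 with LPS and LA. Of the 7 mast cell, basophil and eosinophil markers 5 were higher with LPS, 6 with LA and 6 with both. Singly, Mcpt8, Epx, Prg2 and Fcer1a (above background on 3 arrays) kept the order medium, LPS, then the LA arrays, whereas Cpa3, Tpsb2 and Kit did not. Of those that kept it, only Prg2 was, like the sum, highest with both agents, and the others were highest with LA alone. Cpa3 was highest with LPS, Tpsb2 was lower with LPS than in medium, and Kit was highest in medium. Markers of lymphocytes and NK cells summed to between 1.63 and 1.97, with Ms4a1 and Ncr1 above background on no array. Stromal and endothelial markers summed to between 2.27 and 3.04, with Cdh5 above background on none. The part of these cells in the Osm differences was not tested.

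Il6ra encodes the ligand-binding receptor chain. The intensity of its brighter probe was 1008 in medium, 88.7 after LPS, 1332 after LA and 1345 after both agents, and the levels were 2.50, -0.97, 3.07 and 3.21. The LPS array was the low one. LPS was 11.1-fold below medium (-3.47), the 5th lowest of 15642 genes, and LPS with LA was 18.1-fold above LPS (4.18), the 5th highest of 16015. The second probe, at 0.89, -1.21, 2.32 and 2.08, gave 4.29-fold and 9.79-fold for these comparisons, and normexp gave log2 differences of -2.83 and 3.45 for the brighter one. Against medium the probes fell on different sides of 2-fold, at 1.49-fold and 2.70-fold higher with LA and at 1.64-fold and 2.28-fold higher with LPS and LA. The 9 macrophage and monocyte markers summed highest on the LPS array, at 118, against 84.7 in medium, 66.0 with LA and 60.7 with both, although 5 of the 9 were lower with LPS than in medium, and their part in the Il6ra differences was not tested.

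Il6st, the gp130 chain that all of these cytokines need, was highest in medium. Its brighter probe had intensities of 1289 unstimulated, 411 after LPS, 484 after LA and 432 after both agents, and levels of 2.85, 1.24, 1.61 and 1.57. The 3 treated arrays lay together, below the unstimulated one. They were 3.05-fold (LPS), 2.36-fold (LA) and 2.43-fold (LPS with LA) below medium, and 3.68-fold, 1.91-fold and 1.89-fold by the second probe, whose levels were 2.41, 0.54, 1.48 and 1.49. LPS with LA and LPS were 1.25-fold apart, or 1.94-fold by the second probe.

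Each comparison was read against the share of all genes past the same fold, counting genes above background on at least 1 of the 2 arrays. For LPS against medium, 2 of the 5 genes were at least 2-fold higher (Il6 and Lif) and 2 lower (Il6ra and Il6st), where 9.07% of 15642 genes were higher and 8.57% lower. For LA against medium 1 was higher (Osm) and 2 were lower (Il6 and Il6st), where 4.4% and 4.38% of 16351 genes were. For LPS with LA against medium 1 was higher (Osm) and 1 lower (Il6st), with shares of 4.01% and 5.04% of 16175 genes. These 3 comparisons share the medium array, so their counts are not independent. For LPS with LA against LPS 1 was higher (Il6ra) and 2 were lower (Il6 and Lif), against 12.0% and 12.8% of 16015 genes. This comparison shares the LPS array with the first. For LPS with LA against LA, 0 were higher and 0 lower, where 1.71% and 2.71% of 16414 genes were. Scaling moves such shares. Of all genes past 2-fold, the higher ones made up 51.4% for LPS against medium, 50.1% for LA against medium, 44.3% for LPS with LA against medium and 48.4% for LPS with LA against LPS. In the authors' scaling they made up 30.2%, 65.7%, 65.6% and 76.7%, with the median of all genes at -0.24, 0.17, 0.20 and 0.43. With the percentile taken over probes above background on all arrays, the first and last were 41.2% and 60.8% (medians -0.12 and 0.18).

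**Figure D3:**
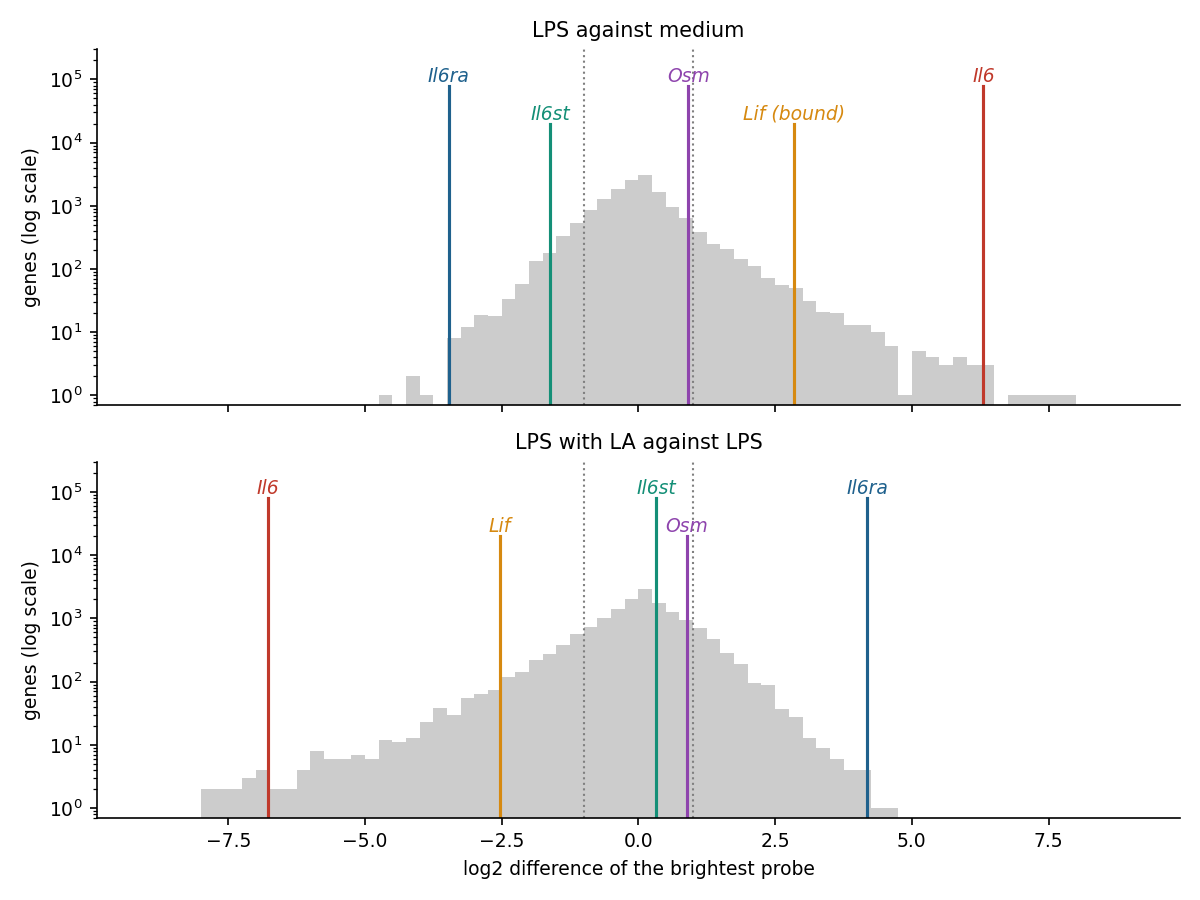
Distribution over all genes of the log2 difference between 2 arrays (x axis; y axis, number of genes on a log scale; dotted lines, 2-fold), for LPS against medium and for LPS with LA against LPS, with coloured lines at the 5 genes. Il6 lies at 6.31 in the first and -6.78 in the second, and Il6ra at -3.47 and 4.18. Genes whose difference could not be given are counted at 0.

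The LPS difference was then set out without LA (LPS minus medium) and with it (LPS with LA minus LA), a contrast that uses each array once. Without LA it was 6.31 for Il6, 0.91 for Osm, -3.47 for Il6ra and -1.61 for Il6st, and with LA it was 0.58, -0.05, 0.13 and -0.05. For Lif it was 2.84 without LA, taken from a medium signal not well above background, and -0.19 with it. The LPS difference of each of the 5 was thus nearer 0 with LA. Fewer genes of the whole array also passed 2-fold there. Without LA 9.07% were higher and 8.57% lower, and with LA 1.71% and 2.71%. The LA difference with LPS minus that without LPS, which is the same quantity, was -5.73 for Il6, the 6th lowest of 13367 genes measured on all arrays. It was 3.60 for Il6ra, the 2nd highest, with 1.86 by the second probe. For Il6st it was 1.56 (second probe 1.89) and for Osm -0.96 (second probe -0.60). At 1 log2 unit, 8.97% of the 13367 genes were higher and 9.7% lower, and of the 4 members measured on all arrays 2 were higher and 1 lower.

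**Figure D4:**
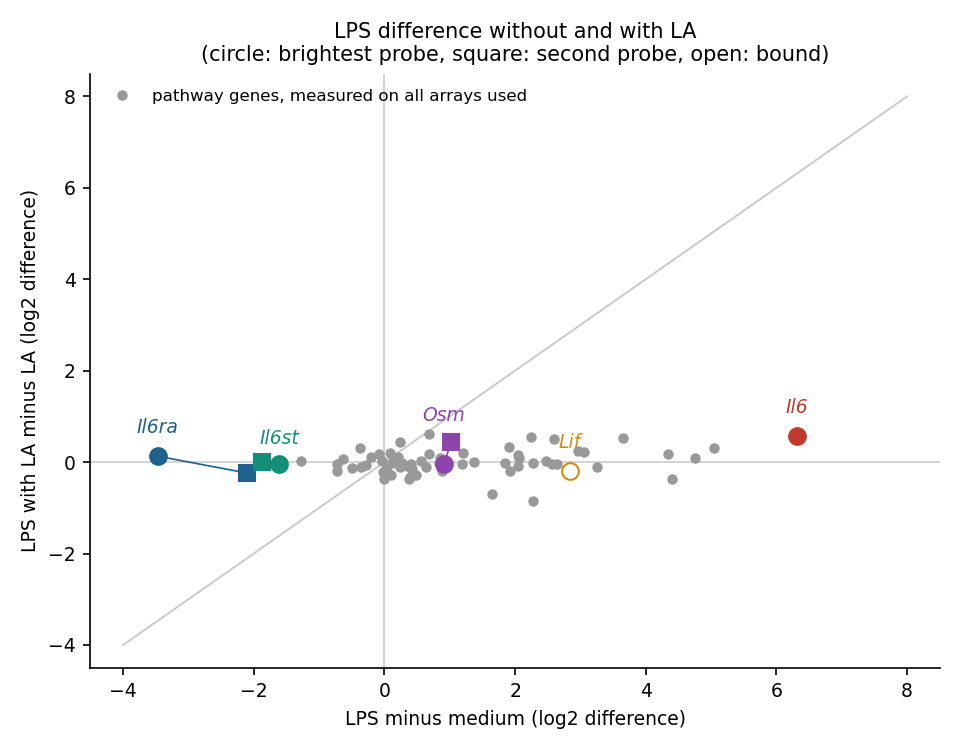
LPS difference without LA (x axis, log2) against that with LA (y axis, log2). Circles are the brightest probe of a member, and squares its second probe where measured on all arrays. The open circle is Lif, whose medium signal was not well above background. Grey points are pathway genes, and the diagonal marks equal differences. The members spread from -3.47 to 6.31 along x and from -0.24 to 0.58 along y.

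Where 2 probes of a gene were both above background, their differences had the same sign in 12 of 15 cases. The gap between them had a median of 0.48 log2 units and ranged from 0.06 to 1.37. The 3 cases of unlike sign were Osm, Il6ra and Il6st for LPS with LA against LA, where every value was at most 0.43 in size. Each gap combines 2 probes on 2 arrays, so its spot error is larger than the SD between single spots. The smallest gap (0.06) is thus not set apart from spot error.

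Genes with the most similar pattern were found by the root mean square distance of centred levels over the 4 arrays, among 12186 other genes (12187 for Lif) with signal on all arrays, as a description of 4 values. Nearest to Il6 were Oasl1, an interferon-induced gene (0.195 log2 units), Cd69, an early activation marker (0.329), and Il12b, a subunit of interleukin-12 (0.355). Nearest to Lif were the carbonic anhydrase Car4 (0.074), Il27, itself a cytokine subunit that signals through gp130 (0.111), and the guanylate-binding protein gene Gbp7 (0.127). The medium signal of Lif was not well above background. Its spot errors were 22.7% of the signal in medium, 16.3% after LA and 17.8% after both. The order of its nearest genes therefore carries little information. Those of Osm were Epx, the eosinophil peroxidase (0.145), Jpt2 (0.146) and Treml2 (0.148). Epx is 1 of the markers summed above and stood at 1.26 unstimulated, 2.39 after LPS, 3.0 after LA and 2.89 after both. Those of Il6ra were Ppcs, an enzyme of coenzyme A synthesis (0.203), Tmem150b (0.309) and the amino acid transporter Slc36a1 (0.378). Il6st was nearest to Tsc22d3, the glucocorticoid-induced leucine zipper (0.081), and Clec2f (0.085) was also among its nearest.

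The wider pathway was read through 72 listed genes, all with a probe. Some genes, among them Socs3, Cish and Cebpb, are in more than 1 of the lists below. They count in each list, and once in the counts of this paragraph. With LPS against medium, 66 were above background on at least 1 array compared. Of these, 27 were at least 2-fold higher and 1 was lower, with a median log2 difference of 0.66 against -0.01 over all genes. With LA alone 8 were higher and 5 lower of 66, and with LPS and LA together 6 were higher and 7 lower than in medium. Over all genes, the shares given above were 9.07% higher and 8.57% lower with LPS, 4.4% and 4.38% with LA, and 4.01% and 5.04% with both. Against LPS alone, LPS with LA had 3 of 67 higher and 32 lower (median -0.65, all genes 0.01), where 12.0% and 12.8% of all genes were. Against LA alone it had 0 of 66 higher and 1 lower, where only 1.71% and 2.71% of all genes were. Of the 27 genes higher with LPS, 25 could be read between LPS with LA and LA, and 0 of those differed by 2-fold there.

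The other ligands listed came to 8 genes, of which Il31 signals through Osmr without gp130. Il27 and Ebi3, the subunits of interleukin-27, were 5.91-fold and 4.86-fold higher with LPS than medium and 5.16-fold and 4.98-fold lower with LPS and LA than with LPS. The cytokine Il11 was above background on the LA arrays only, at least 2.93-fold above medium with LA and 2.42-fold lower with both agents than with LA. Ctf1 and Cntf were above background on no array. Among 6 other receptors, 0 of 4 counted were 2-fold apart between LPS and medium, where 9.07% of all genes were higher and 8.57% lower. The 4 include a gene whose difference could not be given and was entered as 0. Lifr, the LIF receptor chain, was at least 2.83-fold above medium with LA and 2.26-fold with LPS and LA, while Osmr, the oncostatin M receptor chain, was above background on no array. Il11ra1 was 2.06-fold higher with LPS and LA than with LPS.

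Of 10 signal transducers, Jak2, a kinase bound to gp130, was 4.15-fold higher with LPS than medium, and the adaptor Gab1 was 2.42-fold lower. With both agents Jak2 was 7.02-fold below LPS. Among 8 inhibitors, Socs3 was 33.0-fold, Socs1 26.9-fold and Cish 6.24-fold higher with LPS than medium. The same 3 were also higher with LA alone (Socs3 2.59-fold, Socs1 2.85-fold, Cish 2.65-fold), and with LPS and LA (3.22-fold, 3.06-fold and 2.55-fold). Against LPS, LPS with LA had 5 of the 8 lower, among them Socs3 (10.2-fold), Socs1 (8.80-fold), the phosphatase gene Ptpn2 (3.25-fold) and Cish (2.44-fold).

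Shedding of the IL-6 receptor depends on the proteases ADAM10 and ADAM17. Of 4 genes read, Rhbdf2, which carries ADAM17 to the cell surface, was 4.15-fold higher with LPS than medium. Against LPS, LPS with LA had 3 lower: Timp3, an inhibitor of ADAM17 (4.68-fold), Rhbdf2 (3.59-fold) and Adam17 itself (2.81-fold). Adam10 was at most 1.21-fold apart in any of the 5 comparisons.

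Among 12 regulators of Il6 transcription, 4 were higher with LPS than medium: Nfkbiz, an NF-kB cofactor for Il6 (20.2-fold), Irf1 (8.33-fold) and the NF-kB subunits Rel (3.78-fold) and Nfkb1 (3.76-fold). Against LPS, LPS with LA had 6 lower, led by Nfkbiz (21.4-fold), Irf1 (8.73-fold), Atf3, a repressor of Il6 (8.28-fold), and Rel (7.07-fold). Fos, an AP-1 subunit, was 13.7-fold higher there. With LA alone Fos was 8.55-fold above and Atf3 3.94-fold below medium. Of 8 genes acting on Il6 mRNA or on the pathway to it, 5 were higher with LPS, among them Tnfaip3, an inhibitor of NF-kB signalling (12.5-fold), Zc3h12c (7.82-fold), Zc3h12a, the nuclease regnase-1 that cuts Il6 mRNA (6.02-fold), and Zfp36, a decay factor (3.61-fold). All 5 were lower with LPS and LA than with LPS, led by Tnfaip3 (55.9-fold) and Zc3h12c (20.2-fold). Arid5a, which protects Il6 mRNA, was among the 5 in both (3.15-fold higher and 2.45-fold lower).

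Of 20 STAT3 target genes, many of them also targets of NF-kB, 12 were higher with LPS than medium, beside Socs3 the acute-phase gene Saa3 (21.1-fold), Il10, an anti-inflammatory cytokine (at least 19.3-fold), and the adhesion molecule Icam1 (9.50-fold). Against LPS, LPS with LA had 12 lower, led by Saa3 (55.4-fold), Il10 (at least 21.4-fold), Icam1 (14.1-fold) and Fgl2 (12.2-fold), and 1 higher, the transcription factor gene Myc (3.38-fold). Myc was 3.83-fold above medium with LA alone. The list median was 1.42 for LPS against medium and -1.34 for LPS with LA against LPS, beside -0.01 and 0.01 over all genes, and -0.02 for LPS with LA against LA, as over all genes.

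**Figure D5:**
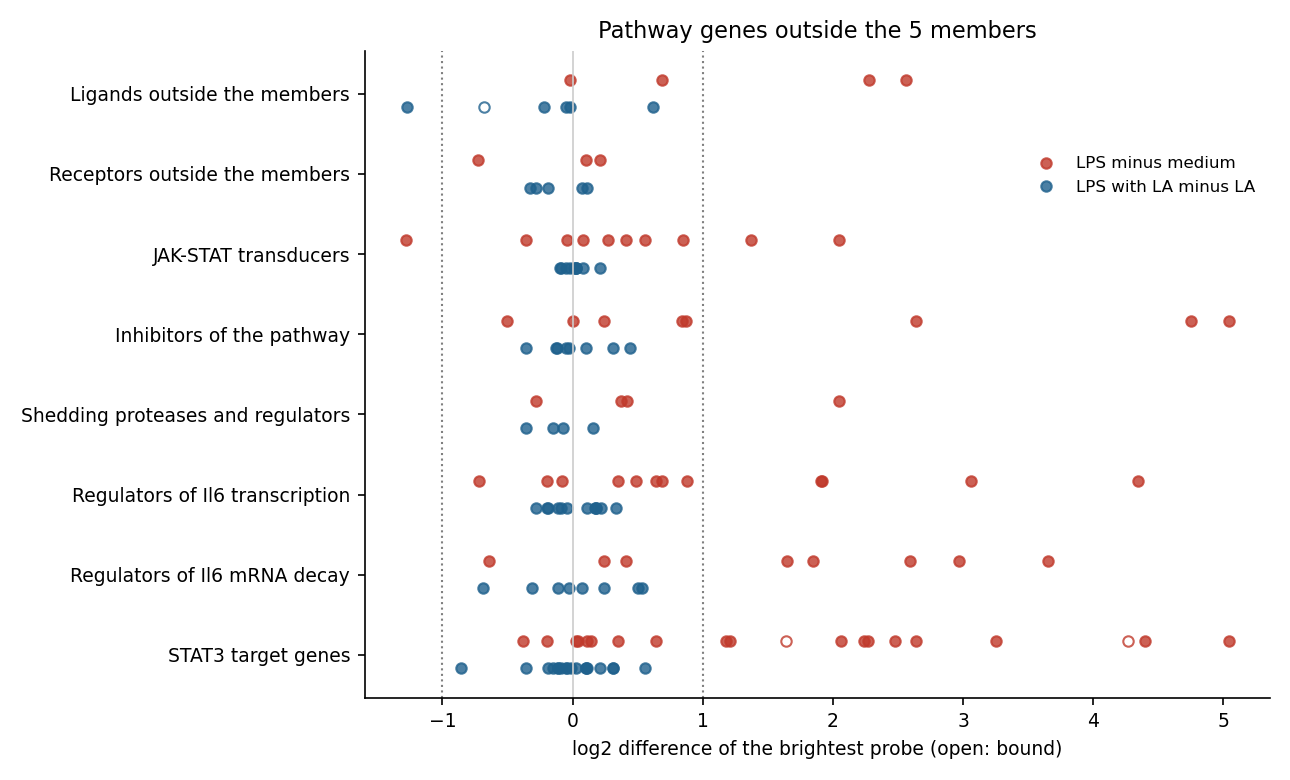
Log2 difference of each pathway gene (x axis; 1 point per gene in each list, open points bounds, dotted lines 2-fold) in 8 lists, for LPS against medium and for LPS with LA against LA. A gene in several lists is shown in each. The first spreads from -1.28 to 5.04, whereas in the second only Il11 passes 2-fold, at -1.27.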

How the data were processed

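RNA of 4 cultures was labelled with Cy3 and hybridised to 4 Agilent arrays, 1 per group. Per the file headers, the deposited intensity is the background-subtracted processed signal of Feature Extraction 12.0.3.1 (the submitters' processing notes name 11.5.1.1), with no scaling between arrays. The authors' own table multiplies it by 1 factor per array (6.67, 5.82, 8.38 and 9.30 for medium, LPS, LA and LPS with LA), with column medians of 1038, 873, 1164 and 1189. It holds 31529 spots, is linear and not centred, and does not list Lif or the second Il6 probe. Relative to medium its scaling lies -0.24 log2 units (LPS), 0.15 (LA) and 0.18 (both agents) away from that of this work.

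Outlier-flagged spots were left out, and 0 spots were saturated. Levels are log2 of intensity over the array's 75th percentile (179, 174, 158 and 146), averaged over the spots of a probe. Of 56605 probes, 33767 matched 1 symbol of the RefSeq table by transcript and 22838 matched none. A gene takes its brightest probe by the mean over arrays. Differences need both arrays well above background. With 1 such array the other is set to the higher of its own signal and the lowest signal well above background there (11.9, 15.4, 9.51 and 8.74), written as at least N-fold. For Lif in medium its own signal was the higher, so its folds against medium are not minima. No bound is given where another probe of the gene was above background on the dim array, or where the bound would not exceed 0. Such genes were entered as a difference of 0. They count in the numbers of genes compared, the shares, the medians and the ranks. At least 2-fold counts as higher or lower.

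Named were the 5 members, at most the 4 furthest genes each way per list and comparison, and the 3 nearest genes in pattern. Adam10, Ctf1, Cntf and Osmr were named after their values were seen. The values of 2 genes that the rule names are not reported here. The members and lists were chosen with earlier results of these data known. The arrays name the mm9 build and symbols come from GRCm38.p6, so coordinates are given for the RefSeq promoter windows only. The calls were tested on simulated data. Alternatives were other scalings, quantile normalization, normexp (offset 50, on the median spot signal, as the files hold no mean), the authors' values, other probe rules, no dim filter and 1.5-fold. Python 3.11.15, numpy 2.4.6, pandas 2.3.3, R 4.3.3 and limma 3.58.1 were used.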

Additional observations from a re-analysis of the deposited data

Results flagged for a closer look

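Among members well above background on all arrays, 3 had differences of opposite sign for an agent with and without the other, by the brighter probe. Lif was left out because its medium value was not well above background. Its LA difference was 0.49 log2 units without LPS and -2.53 with it, and its LPS difference 2.84 without LA and -0.19 with it. These differences were not tested, since each group is 1 array. The LPS difference of Osm was 0.91 log2 units without LA and -0.05 with LA; by the second probe it was 1.02 and 0.43, with no change of sign. That of Il6ra was -3.47 without LA and 0.13 with LA, and -2.10 and -0.24 by the second probe, again the same sign. The LA difference of Il6st was -1.24 without LPS and 0.32 with LPS, and -0.93 and 0.96 by the second probe. The values near 0 (-0.05 and 0.13) are differences between 2 arrays, with a larger spot error than the SD between single spots (0.051 to 0.054). Their sign carries little information.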

How the results depend on the processing

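Over the alternatives run, 177 of 192 log2 differences of the members kept their side of 2-fold, 6 fell short of it and 9 passed it. Part of the 177 could not have moved. Leaving out the dim filter returns the main value of every member. Lif has 1 probe, so the mean of probes and the second probe return its main values too. The sign changed in 6, all for LPS with LA against LA and at most 0.43 in size (Osm, Lif, Il6ra and Il6st), and in 0 called values. Il6 ranged from 5.31 to 6.99 for LPS against medium and from -7.45 to -5.42 for LPS with LA against LPS, and Il6ra from -3.70 to -2.10 and from 3.29 to 4.60. Among members, LPS against medium had 1 higher in the authors' values, which do not list Lif, and 3 with the second probe or a 1.5-fold mark. Other counts that moved by 1.5-fold or less are left out of what follows. LA against medium had 2 higher with the mean of all probes or the second brightest probe, where Il6ra passed (1.01 and 1.43). It had 1 lower with normexp, the authors' values or the mean of probes, where Il6 fell short (-0.32, -0.90 and -0.72), and 0 with the second probe (Il6st -0.93). LPS with LA against medium had 2 higher with the second probe or a 1.5-fold mark, and 0 lower with the second probe. LPS with LA against LPS had 2 higher with the percentile over probes above background, quantile normalization, the authors' values, the mean of probes, the second probe or 1.5-fold, with Osm at 1.05 to 1.96 in the first 5 (all genes shifted by up to 0.43 there). It had 1 lower with normexp (Lif -0.89) or the authors' values. For pathway genes, LPS against medium had 0 lower with normexp and 2 with the second probe. Its higher ones ran from 23 in the authors' values to 31 with the second probe (27 in the main processing). LA against medium had 3 higher with normexp, and 3 lower with normexp, the mean or the second probe. LPS with LA against medium had 4 lower with normexp. LPS with LA against LPS had 6 higher with the percentile over probes above background, 7 in the authors' values, and 5 with quantile normalization, the second probe or no dim filter. LPS with LA against LA had 2 higher with the second probe or no filter, and 0 lower with normexp or the authors' values, 3 with the mean or second probe and 2 with no filter. The difference of differences of Osm was -1.01 with median scaling. The cause of these moves was not tested. No paired analysis was possible because each group has 1 array. Lif and the second Il6 probe lie near background off the LPS array, which limits their precision.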
